A study of Mus musculus with 15 samples.

Results

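Of the 3927 circular RNAs (circRNAs) listed for sorted cells of the embryonic mouse ventral midbrain, 370 (9.42%) were at 0 in each of the 3 GFP− libraries while their mean over the 6 sorted libraries reached 0.5 normalized reads, so that all of their reads came from GFP+ cells. They are called the GFP+-side circRNAs below. They were selected on these measured values, which belong to the contrast between the sorted fractions at embryonic day 14 (E14), and everything given from that contrast is therefore a description with no test. The mice, Pitx3-GFP, make green fluorescent protein where Pitx3 is active, a transcription factor gene of midbrain dopamine neurons, and their cells were separated by fluorescence-activated cell sorting. The sorted groups were Pitx3-GFP GFP+ and Pitx3-GFP GFP− cells at E14, and a second set held Pitx3-GFP GFP+ cells at E14, at embryonic day 16 (E16) and at birth (P0), with 3 libraries in each of the 5 groups and no treatment other than the sort. All groups carry the reporter, its zygosity was not given in the sources used here, and the GFP− cells bear the label dopamine neurons too. The midbrains came from 3 litters, but the labels do not tie a litter to a library, so p-values cover only the spread between these libraries, which may be technical in part.

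A circRNA forms when the spliceosome joins the end of an exon back to the start of the same or an earlier exon, which leaves a closed loop without a cap or a poly(A) tail. Such loops resist exonucleases and accumulate in cells that divide little, and neurons are known for holding many of them. A circRNA is seen through the few reads that cross its back-splice junction, so its counts are small beside those of the host gene. Proteins such as Quaking, muscleblind, the ADAR editing enzymes and the RBFOX and CELF families bind near exons and are known to raise or lower circle formation.

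The marker check set the fractions apart as labelled. All 14 dopamine neuron markers were higher in GFP+ cells, with a summed level of 7886 to 9848 normalized reads in GFP− and 116070 to 129460 in GFP+ libraries. All 12 progenitor and radial glia markers, all 8 microglia markers, 9 of 10 vessel and blood markers, 8 of 10 GABA neuron markers, 6 of 9 glia markers and 8 of 9 markers of glutamate, cholinergic or serotonin neurons were lower there, and 2 GABA neuron markers were higher. The GFP− libraries thus held RNA of several cell types, and in bulk libraries fewer cells of a type and less RNA per cell cannot be told apart. The GFP− libraries held 10498, 15050 and 16509 back-splice reads, against 17369191 to 22374153 gene reads in the 6 sorted libraries.

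The promoters of Cdk14, Erbb4 and Msh3, which carried 4, 4 and 5 of the GFP+-side circRNAs, are shown first, as examples of hosts with several circles in the set. The lines give the 250 bases before the RefSeq start of each (GRCm38.p6, minus strand, 5′ to 3′), at chr5:5380252-5380501, chr1:69108060-69108309 and chr13:92355004-92355253, and the capitals mark each CG dinucleotide.
Cdk14: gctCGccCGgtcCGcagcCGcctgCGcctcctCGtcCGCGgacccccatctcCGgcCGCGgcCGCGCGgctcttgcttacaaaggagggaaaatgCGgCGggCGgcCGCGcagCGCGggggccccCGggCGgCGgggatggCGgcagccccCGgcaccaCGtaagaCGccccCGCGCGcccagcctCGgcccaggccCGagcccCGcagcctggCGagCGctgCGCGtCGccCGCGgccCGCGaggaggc
Erbb4: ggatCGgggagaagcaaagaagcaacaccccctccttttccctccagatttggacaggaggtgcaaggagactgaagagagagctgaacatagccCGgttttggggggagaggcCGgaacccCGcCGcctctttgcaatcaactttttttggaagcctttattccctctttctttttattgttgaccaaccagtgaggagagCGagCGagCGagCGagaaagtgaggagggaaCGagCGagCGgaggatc
Msh3: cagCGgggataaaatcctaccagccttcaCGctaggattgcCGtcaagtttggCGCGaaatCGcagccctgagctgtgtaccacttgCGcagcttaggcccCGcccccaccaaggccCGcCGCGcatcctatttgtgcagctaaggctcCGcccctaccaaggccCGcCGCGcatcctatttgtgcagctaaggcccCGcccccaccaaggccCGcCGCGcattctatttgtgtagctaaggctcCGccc
The Cdk14 stretch was 81.2% G or C with 43 CG dinucleotides, that of Msh3 62.8% with 20, and that of Erbb4 54.0% with 12. RefSeq promoters, which run from 250 bases before to 50 after a start, were matched for 241 of the 314 named hosts. Their median GC content was 63.8%, against 63.3% for hosts of the other sorted circRNAs and 52.7% for all genes. Both strands were searched for AAAGGTCA, the element bound by the dopamine neuron factor Nurr1, for TAATCC, a site of bicoid-class homeodomain factors such as Pitx3, for TGTTTAC, a forkhead site, and for the E-box CAGCTG. None of these motifs contains another. The motifs stood in 1.19%, 4.76%, 2.68% and 12.5% of the 336 promoters of member hosts, in 1.07%, 4.75%, 2.60% and 14.4% of the 1770 of hosts of the other sorted circRNAs and in 1.51%, 7.06%, 3.65% and 16.3% of all 32851 promoters. None of the printed promoters held one, which says only that these letters are not in these windows.

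The GFP+-side circRNAs were mostly of very low abundance. The deposited means, which are sums of whole reads divided by a scaling factor per library, resolved uniquely into the reads of the 3 GFP+ libraries, here called A, B and C because they cannot be tied to the numbered samples. Of the 370 circRNAs, 202 rested on 3 or 4 reads, 135 on 5 to 9 and 33 on 10 or more, with a median of 4. Reads lay in a single GFP+ library for 237 of them (64.1%), in a pair of libraries for 100 and in all 3 for 33 (8.92%). Libraries A, B and C held 827, 696 and 469 of the reads, and 86, 90 and 61 of the circRNAs had reads in that library alone. A value of 1 read did not occur in the table, so a 0 may stand for a single read as well as for none. Together the 370 made up 5.36% of the GFP+ circRNA signal.

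The reverse set was also sparse. By the same limits 473 circRNAs were at 0 in GFP+ and seen in GFP− cells, of which 262 (55.4%) had reads in a single GFP− library, 165 (34.9%) in a pair and 46 (9.73%) in all 3, with a median of 5 reads. They made up 6.78% of the GFP− signal. Of the 2552 circRNAs with a mean of at least 0.5, 14.5% were on the GFP+ side and 18.5% on the GFP− side.

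At the limit, the least abundant member was circ_03625_Fgd6, from a gene for a guanine nucleotide exchange factor, with 3 reads in library B and a mean of 0.523. It shared that value with the other members of a tie of 53. The most abundant circRNA left out was circ_02955_Uty, with 3 reads in library A and a mean of 0.436, 1 of 84 at that value. With reads in 1 library, 3 were enough in B or C but 4 were needed in A.

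**Figure D1:**
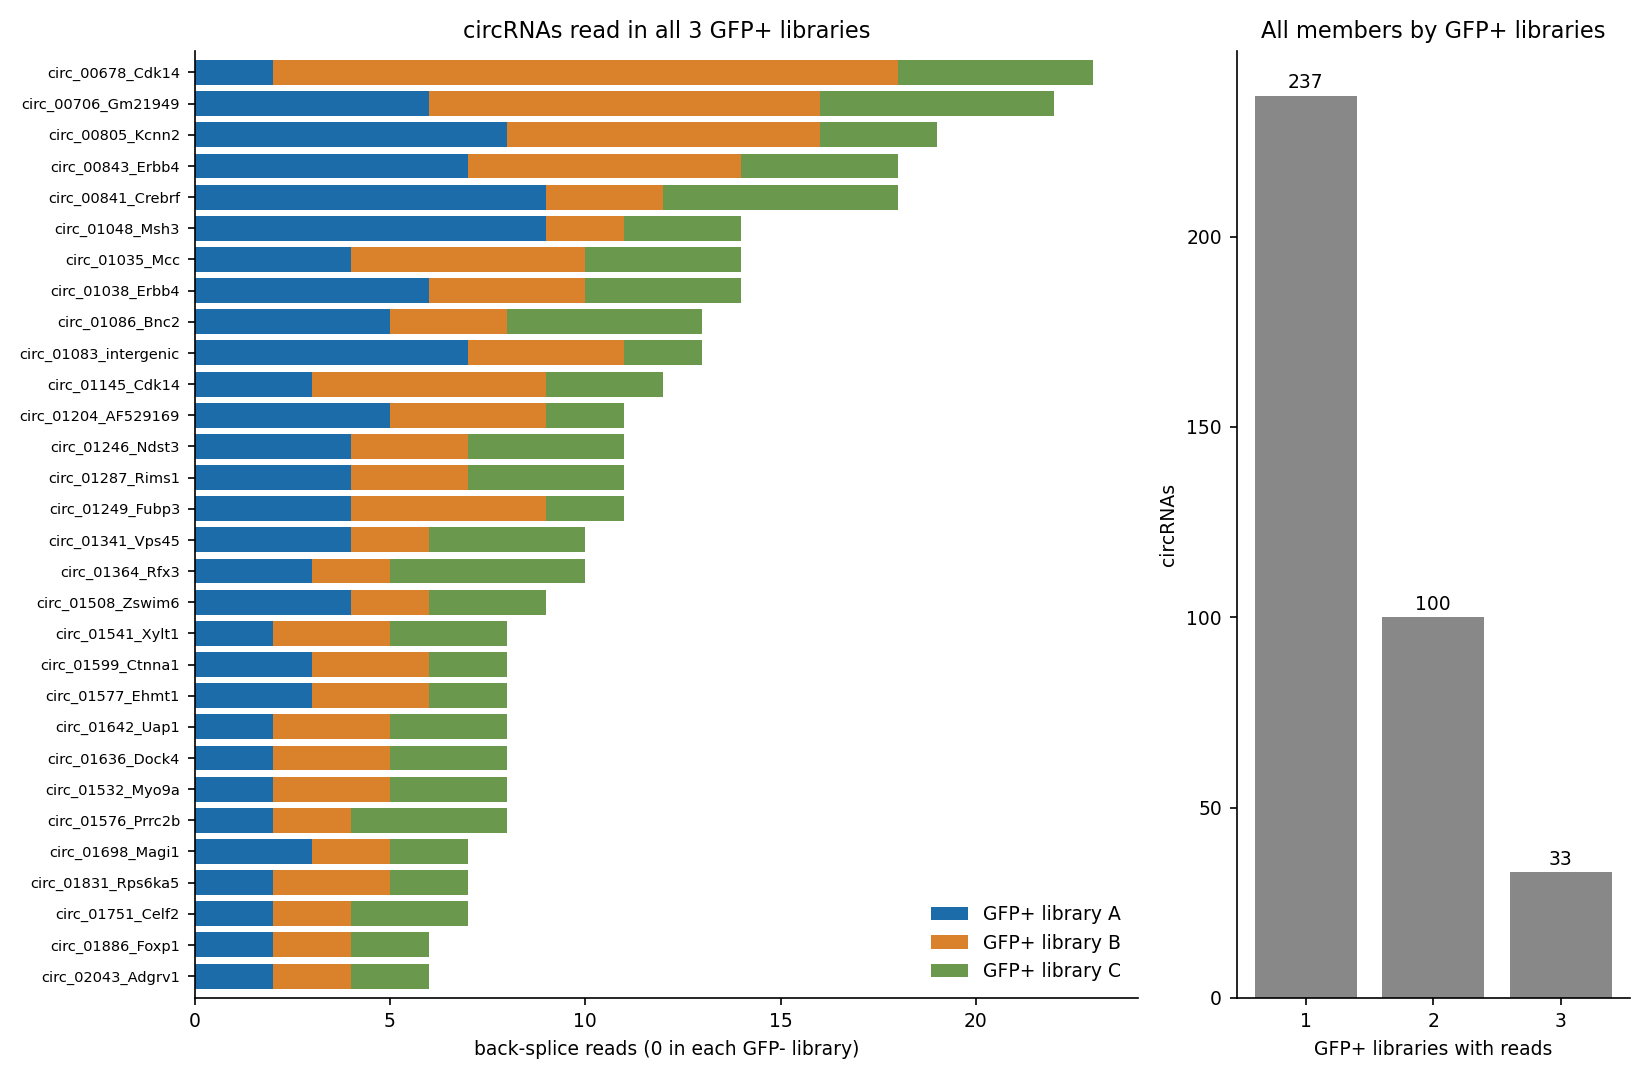
Left, back-splice reads (x axis) of 30 of the 33 GFP+-side circRNAs read in all 3 GFP+ libraries, stacked by library. Right, number of GFP+-side circRNAs (y axis) by the number of GFP+ libraries with reads. circ_00678_Cdk14 has 23 reads, most of them in library B, and 237 of the 370 circRNAs rest on 1 library.

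The deposited table of the authors gave an adjusted p to 11 of the GFP+-side circRNAs and NA to 359. It called 2 of them higher in GFP+ cells. Of the 958 circRNAs with an adjusted p in that table, 1.04% were called higher, and nothing is read from the comparison, since it chose the circRNAs. The authors' deposited table has circ_00706_Gm21949 among those called, at 5.52 ± 1.54 (SE) on the log2 scale and an adjusted p of 0.0317.

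Cdk14 (chr5:4803391-5420312, minus strand), a cyclin-dependent kinase gene linked to Wnt signalling, had 4 of its 5 circles in the set. The main one, circ_00678_Cdk14, was uneven, with 2, 16 and 5 reads in libraries A, B and C, so library B held most of them. Its GFP+ mean was 8.24 normalized reads, 8.86 times the 0.930 that 3 reads over the GFP− libraries would make. That ratio comes from the values that chose the circRNA and is no lower bound. Next, circ_01145_Cdk14 had 3, 6 and 3 reads, and circ_01082_Cdk14 had 10, 3 and 0. Its circles summed to 0 in the GFP− and on average 18.4 in the GFP+ libraries, while the gene stood at 1717 ± 55.9 (SD, n = 3) and 5800 ± 525 normalized reads.

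Erbb4 (chr1:68032186-69108059, minus strand) encodes the neuregulin receptor, and 4 of its 5 circles were in the set. The leading circ_00843_Erbb4 had 7, 7 and 4 reads and circ_01038_Erbb4 had 6, 4 and 4. Erbb4 circles summed to 0, 0 and 1.55 normalized reads in the GFP− libraries, from a circle with no reads in GFP+ cells, and to 13.4 in GFP+ cells. The gene values were 3944, 3169 and 3260 in GFP− and 14773, 11085 and 13481 in GFP+ libraries, without overlap.

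Msh3 (chr13:92211872-92355003, minus strand), a DNA mismatch repair gene, had the most members, 5 of its 10 circles. Among them circ_01048_Msh3 had 9, 2 and 3 reads and circ_01183_Msh3 had 5, 7 and 0. Over all 10 circles the level was 0, 5.06 and 0 in the GFP− libraries and 29.8 in GFP+ cells. The 5 circles outside the set, 2 of them seen in GFP− cells, were also higher in GFP+ (14.6) than in GFP− cells (1.69), beside gene means of 3596 ± 73.1 and 1101 ± 71.4 (SD, n = 3).

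Bnc2 (chr4:84275095-84675275, minus strand), which encodes the zinc finger protein basonuclin 2, showed the widest gene difference among named hosts. Its circ_01086_Bnc2 had 5, 3 and 5 reads. The gene stood at 110, 107 and 83.1 normalized reads in GFP− and 1711, 1506 and 1731 in GFP+ libraries, a log2 fold change of 4.04 (SE 0.13). Bnc2 circles as a whole summed to 0.843 in GFP− and 23.6 in GFP+ cells.

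The other circRNAs near the top came from genes of varied function. circ_00706_Gm21949 had 6, 10 and 6 reads. Its host overlaps Iqcj, Iqschfp and Schip1 on the same strand, so gene and circle cannot be assigned among them with certainty. The overlap with Iqschfp is 734 kb, the full span of the host, so Gm21949 and Iqschfp may be names of the same gene. circ_00805_Kcnn2, from the gene of a small-conductance calcium-activated potassium channel, had 8, 8 and 3 reads and was the only Kcnn2 circle. circ_00841_Crebrf, from a regulator of CREB3 proteins, had 9, 3 and 6 reads. circ_01035_Mcc had 4, 6 and 4 reads, and circ_01112_Pum2, from a translational repressor gene, had 0, 9 and 4. circ_01083_intergenic, with 7, 4 and 2 reads, was the most abundant of 6 members named intergenic. Named after their values were seen, circ_01096_Ndst3 and circ_01204_AF529169 complete the group. circ_01096_Ndst3, from a heparan sulfate enzyme gene, had 13 reads in library A and 0 in B and C, the only circRNA with 10 or more reads that rested on 1 library. circ_01204_AF529169 had 5, 4 and 2 reads. Minar1 overlaps its host on the same strand over 35.9 kb, the full span of the host. AF529169 and Minar1 may therefore be names of the same gene.

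Few hosts gave more than 1 circle of the set. The 364 circRNAs with a host name came from 314 hosts, of which 276 gave 1, 31 gave a pair and 7 gave 3 or more, among them Msh3, Cdk14, Erbb4, Rabep1, Adarb2 and Pbrm1. For 128 hosts no circle at all was seen in GFP− cells, and the other 186 had another circle there. Rabep1, which encodes an endosomal effector of Rab5, was of the latter kind. It had 4 members with 3 to 5 reads each, but its 9 circles summed to a mean of 92.5 in GFP− and 92.6 normalized reads in GFP+ libraries. The 9 circles of Pbrm1, a chromatin remodelling gene with 3 members, summed to 33.8 and 40.7.

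The hosts were long genes with many exons. Of the 308 found in the annotation of GRCm38, 305 were protein coding. The median host spanned 122.5 kb with 21 exons, against 85.8 kb and 17 for 1626 hosts of the other sorted circRNAs and 18.3 kb and 7 for all genes tested. Chromosomes 11, 4 and 6 held 24, 23 and 23 of them.

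Among the gene lists, the dopamine neuron transcription factors gave 5 hosts of 26 genes, with 7 circRNAs. Besides that of Bnc2 these included circ_01826_Myt1l with 4, 0 and 3 reads, circ_02503_Ebf3 with 0, 2 and 2 and circ_03460_Ebf2 with 0, 3 and 0, the last pair named after their values were seen. The first encodes a neuronal zinc finger repressor and the others early B-cell factors that act in neuron migration and differentiation. Guidance, adhesion and migration gave 6 hosts of 86 genes, led by circ_01432_Epha5, from an ephrin receptor gene, with 6, 3 and 0 reads. Synapse genes gave 8 of 68, led by circ_01287_Rims1, from an active zone scaffold gene, with 4, 3 and 4 reads. Ion channels gave 3 of 54, Kcnn2, Cacna1a and Dpp6, and neurotrophic receptors 2 of 16, Erbb4 and the GDNF co-receptor gene Gfra1, whose circ_01965_Gfra1 had 4, 0 and 2 reads. Genes known from other work for their circRNAs gave 5 of 36, Rims1, Rims2, Magi1, Foxp1 and Stau2. The dopamine synthesis and transport list gave 0 of 20, and it had no circRNA in the whole table. The 7 marker lists gave no member either, and none of them held more than 1 circRNA in the whole table. Members were 7 of 26 circRNAs of the transcription factors, 8 of 98 of guidance, adhesion and migration and 10 of 97 of synapse genes. For ion channels they were 4 of 41, for neurotrophic receptors 5 of 17 and for genes known for their circRNAs 9 of 137. Among all sorted circRNAs they were 370 of 3927 (9.42%).

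The regulators of circle formation and turnover were themselves hosts in 3 cases of 40 genes. Of their 40 circRNAs 6 were members, beside 9.42% of all sorted circRNAs. Adarb2, an ADAR family gene without known editing activity, had 3 members with 4 to 7 reads, and Celf2 and Mbnl2 had 2 and 1. At the gene level, 37 of that list were measured, and 10 were higher and 6 lower in GFP+ cells, beside 12.7% and 18% of all genes, with a median log2 difference of 0.16 against 0.02 over all genes. Quaking (Qk) stood at 11818, 9721 and 9632 normalized reads in GFP− and 1939, 1510 and 1532 in GFP+ libraries, a log2 difference of -2.65 (SE 0.11). Rbm20 (-1.85), Rbfox1 (-1.35) and Khdrbs3 (-1.14) were lower as well. Adarb2 (1.61), Elavl2 (0.88) and Celf4 (0.43) were higher. Whether these levels bear on the GFP+-side circles was not tested.

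The GFP− reads expected from the hosts were low counts, and the limit on the mean puts many of them above 3. For 358 circRNAs the host was in the gene table, and the GFP+ circle level times the ratio of the host in GFP− to GFP+ cells gave the GFP− reads expected had circle and host differed alike. The median was 4.17 reads over the 3 GFP− libraries, where 0 were seen. Up to 3 reads, the limit that a count of 0 allows, were expected for 75 (20.9%) and more than 3 for 283. Since libraries vary beyond counting error and a single read reads as 0, a limit of 6 reads was also used, and 279 were then at or under it and 79 (22.1%) above. A scaling by 1.13 was tried, the median GFP− to GFP+ ratio of circle to host over 454 of the circRNAs seen in both fractions. It put 50 at or under 3 reads and 308 above 3. The limits cover counting error only. Because each circRNA was chosen for having 0 reads here, a surplus over 0 is partly made by the choice. The choice also asked for a mean of at least 0.5, so the lowest GFP+ mean was 1.05 normalized reads. That is above the 0.930 that 3 reads over the GFP− libraries make. Any member whose host was level in both fractions is therefore expected above 3 reads, and nothing is read from the 283. In the reverse set 132 of 457 (28.9%) passed 6 reads, expected in GFP+ cells.

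The circRNAs at either end of that range differ in their hosts. For circ_01249_Fubp3, with 4, 5 and 2 reads, 17.6 GFP− reads were expected, because the gene of this single-strand DNA binding protein was at 1208, 1021 and 1008 normalized reads in GFP− and 852, 705 and 734 in GFP+ libraries. For circ_01364_Rfx3, with 3, 2 and 5 reads, from a ciliogenic transcription factor gene, the expected value was 16.7, and for circ_00841_Crebrf it was 16.4. For circ_01112_Pum2 it was 13.5. For circ_00678_Cdk14 it was 8.12, in spite of the higher gene level in GFP+ cells. For circ_01086_Bnc2 it was 0.922, so that its 0 in GFP− cells is within the limit that a count of 0 allows.

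**Figure D2:**
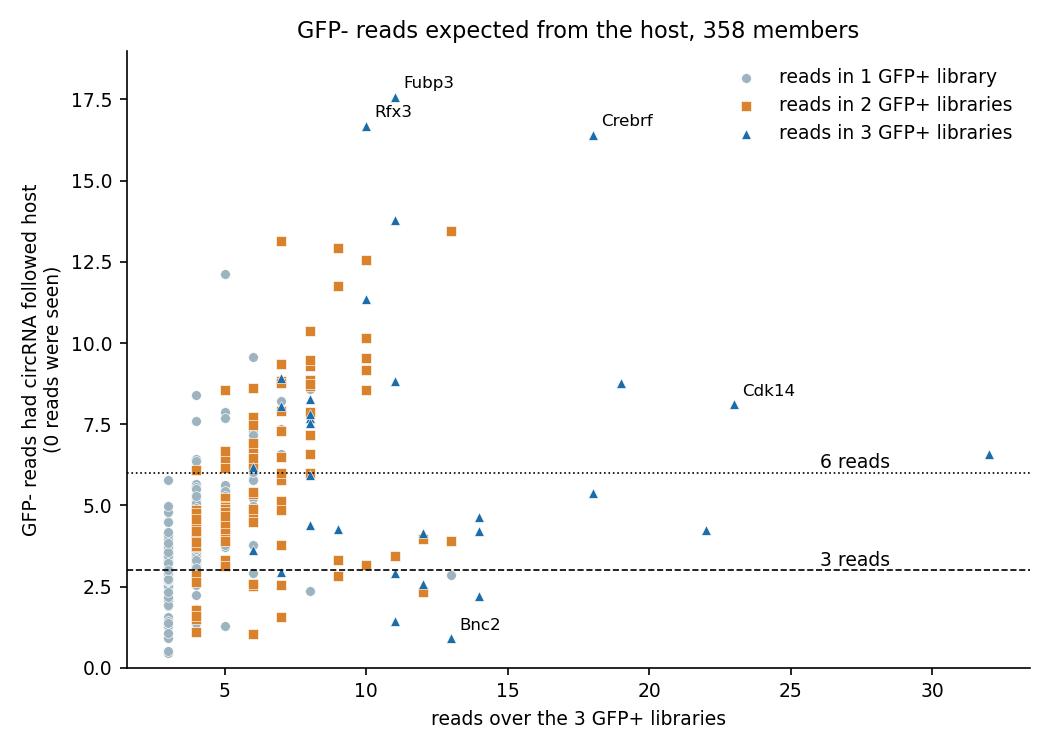
Reads over the 3 GFP+ libraries (x axis) and GFP− reads expected had the circRNA followed its host gene (y axis) for 358 circRNAs, by the number of GFP+ libraries with reads; lines mark 3 and 6 reads. The points for Fubp3, Rfx3 and Crebrf lie highest at 17.6, 16.7 and 16.4 reads, and Bnc2 lies at 0.922.

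The host genes were more often higher than lower in GFP+ cells. Of 307 hosts measured, 120 were higher and 16 lower at an adjusted p of 0.05 (limma), with a median log2 difference of 0.20. Over all 18260 genes 12.7% were higher and 18% lower, with a median of 0.02. Hosts of the other sorted circRNAs gave 412 higher and 218 lower of 1625, with a median of 0.10. This is the comparison that chose the circRNAs, in the same libraries, so nothing is read from it. Whether reads of circles were counted in the genes was not tested. With libraries scaled to equal totals, 89 hosts were higher and 25 lower, beside 1563 and 4008 of all genes. With the replicate number as a block, 187 hosts were higher and 28 lower, beside 22.7% and 23.6% of all genes.

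As a description only, and from the libraries that chose the circRNAs, the hosts are also given by the number of GFP+ libraries with reads. Hosts whose best circRNA had reads in all 3 libraries had a median of 0.68, with 19 of 29 higher and 2 lower. With 1 library the median was 0.19 (66 of 188 higher, 8 lower), and with a pair of libraries 0.20 (35 of 90 higher, 6 lower). After Bnc2, the largest differences in hosts were those of AF529169 (3.07), Mcc (2.88), Ebf2 (2.72) and Gfra1 (2.66). The hosts furthest lower were Peli2 (-1.06), a Pellino ubiquitin ligase gene, the chaperone exchange factor gene Sil1 (-0.86), the replication repair gene Mms22l (-0.73), Raver2 (-0.72) and Cep112 (-0.58). Mms22l and Cep112 lost their call without GFP− library 2, at adjusted p of 0.0643 and 0.0536 (limma), and Cep112 also without GFP+ library 2, at 0.0573. The Peli2 gene had 174 ± 21.6 normalized reads in GFP− and 83.3 ± 15.8 in GFP+ libraries (SD, n = 3), while circ_02334_Peli2, chosen after its values were seen, had 5 reads in library B and 0 in A and C.

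**Figure D3:**
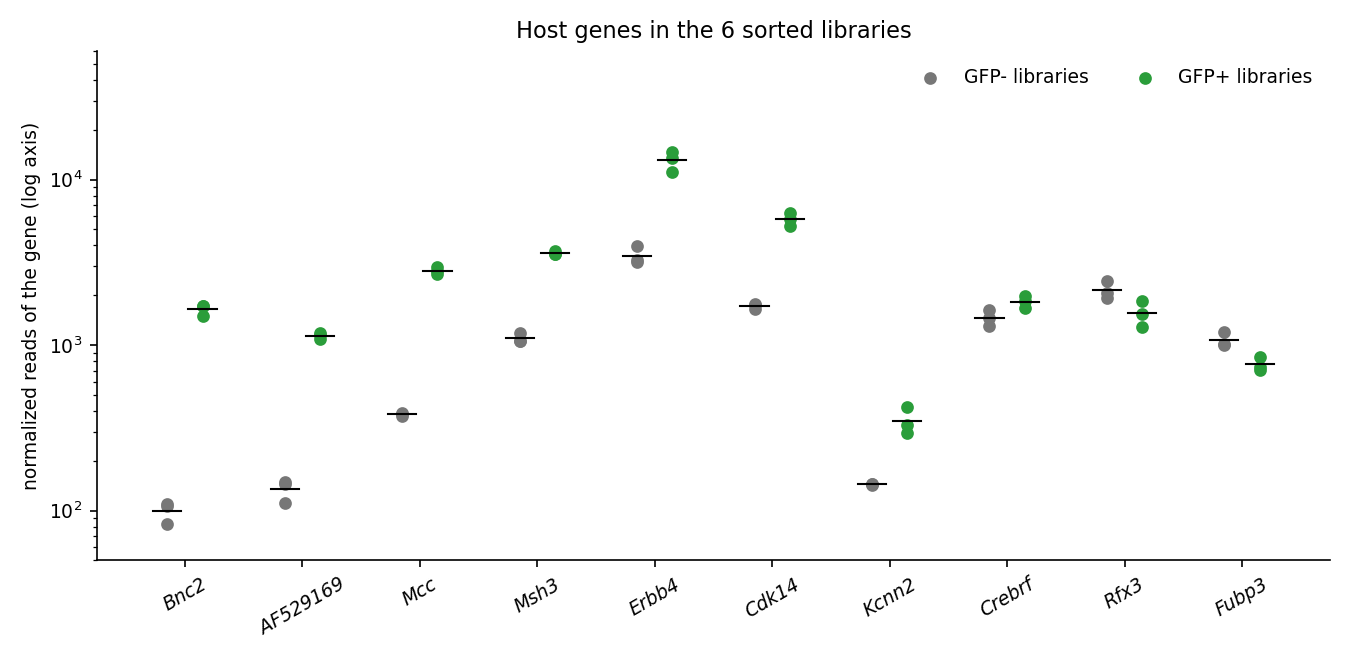
Normalized reads (log axis) of host genes in the 3 GFP− and 3 GFP+ libraries, with a line at each mean. Bnc2 has means of 99.9 in GFP− and 1650 in GFP+ libraries, and Rfx3 and Fubp3 are lower in the GFP+ libraries.

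The time series gave libraries that the choice had not used. circRNA numbers belong to a table and no junction coordinates came with either, so a circRNA could be followed by its host only. Of the 314 hosts, 258 (82.2%) had a circRNA in at least 1 of the 3 E14 libraries of this set. In each of the 3 libraries 162 (51.6%) had a circRNA, which need not be the same circRNA throughout. The shares in all 3 below are counted in the same way. For the 1667 hosts of the other sorted circRNAs it was 70.4% and 37.7%, and for the 400 hosts of the reverse set, absent from the sorted GFP+ libraries, 80.5% and 46.2%. Among the 344 of those that were no host of a GFP+-side circRNA, 268 had one and 141 in all 3. Among the 29 hosts whose sorted circRNA had reads in all 3 GFP+ libraries, 27 had one in at least 1 library and 22 in all 3. Of the 128 hosts without any circle in GFP− cells, 85 (66.4%) had one and 24 (18.75%) in all 3. Both shares were below those of the hosts of the other sorted circRNAs. The circles of Cdk14 summed to 30.5, 48.1 and 47.5 normalized reads at E14 in this set, those of Erbb4 to 24.4, 31.6 and 42.0 and those of Msh3 to 32.1, 25.9 and 32.9. All 3 hosts thus had circles in each E14 library. Fubp3 circles summed to 1.53, 7.90 and 5.48. Depth was higher here, at 24760 to 32905 circRNA reads per E14 library.

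Between E14 and P0 the host genes declined more often than they rose. Of 296 hosts measured, 61 rose and 122 fell (limma, adjusted p of at most 0.05), with a median log2 fold change of -0.13. Over all 10781 genes 25.1% rose and 30.6% fell, with a median of -0.05, and hosts of the other sorted circRNAs gave 360 and 551 of 1545, with a median of -0.08. Among the 28 hosts of circRNAs seen in all 3 GFP+ libraries, 1 rose, Rims1, and 17 fell, with a median of -0.34. In both steps, E14 to E16 and E16 to P0, more of the 296 hosts fell than rose. The same held for hosts of the other sorted circRNAs. From E14 to E16, 31 hosts rose and 72 fell, beside 15.2% and 17.8% of genes (41 and 60 hosts, beside 1883 and 1497 genes, at equal totals), and from E16 to P0 46 rose and 61 fell, beside 16.8% and 16.6%. Without E16 library 3 the 61 became 40, and without P0 library 2 the 46 became 28. Hosts of the other sorted circRNAs gave 214 rising and 371 falling of 1545 from E14 to E16. From E16 to P0 they gave 215 and 275. The share falling from E14 to E16 was thus about the same in both sets of hosts.

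The steepest declines were in Ebf2, Nxn, Pde5a, Epb41 and Zswim6. Ebf2 stood at 4052, 3921 and 4041 normalized reads at E14, 1851, 1726 and 1880 at E16 and 921, 787 and 557 at P0, a log2 fold change of -2.44 (SE 0.13, limma adjusted p 6.93e-09). Nxn, which encodes the redox protein nucleoredoxin, changed by -2.13 (SE 0.12), the cyclic GMP phosphodiesterase gene Pde5a by -1.95 (SE 0.17), the membrane skeleton gene Epb41 by -1.43 (SE 0.10) and Zswim6 by -1.40 (SE 0.09). At each age the 3 values of Ebf2 lay apart from those of the other ages. Among the hosts described above, Erbb4 fell from 18702, 17830 and 17532 to 11902, 13254 and 10987 normalized reads (-0.58, SE 0.08, adjusted p 4.15e-05, limma). Bnc2 fell by 0.80 on the log2 scale and Ndst3 by 1.14. Cdk14 (0.08, SE 0.06, adjusted p 0.337) and Msh3 (-0.16, SE 0.10, adjusted p 0.171) did not pass the test with limma.

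The hosts that rose most were Galntl6, Adamts6, Sv2b, Nrbp2 and Psd3. Galntl6, an enzyme gene of O-glycosylation, went from 1220, 1216 and 846 normalized reads at E14 to 3089, 3485 and 3899 at P0, a log2 fold change of 1.69 (SE 0.13, limma adjusted p 1.14e-07). The metalloproteinase gene Adamts6 changed by 1.25 (SE 0.13), the synaptic vesicle gene Sv2b by 1.12 (SE 0.10), Nrbp2 by 1.06 (SE 0.12) and Psd3, which encodes a postsynaptic exchange factor of Arf6, by 0.99 (SE 0.10). Rims1, another synaptic host, rose by 0.90 (SE 0.09).

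**Figure D4:**
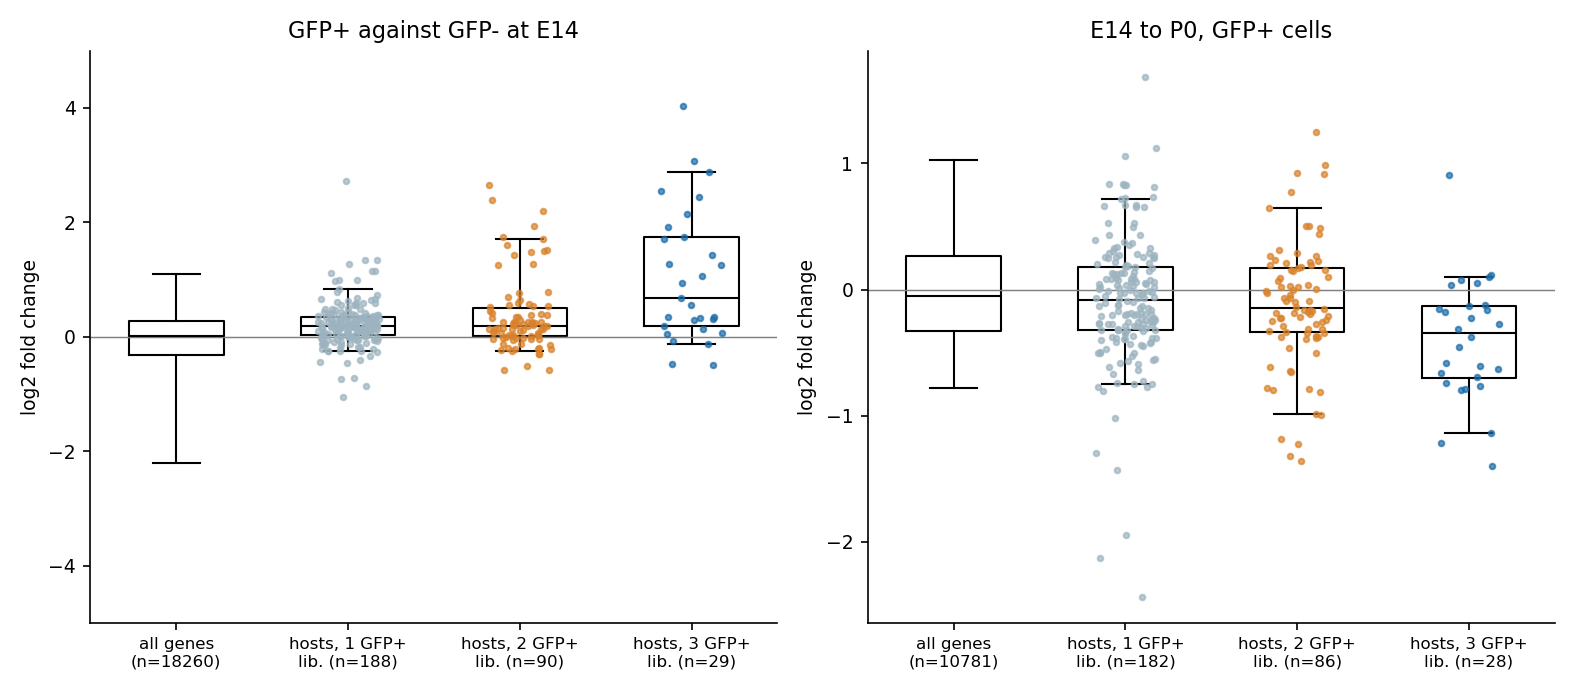
Log2 fold changes (y axis) of all genes and of hosts by the number of GFP+ libraries in which their best circRNA had reads, for GFP+ against GFP− cells at E14 (left) and for E14 to P0 (right); boxes span the quartiles with the median, whiskers the 5th to the 95th percentile, points are hosts. Hosts read in all 3 libraries have medians of 0.68 on the left and -0.34 on the right.

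Of the lists, the dopamine neuron transcription factors had 0 of 24 genes rising and 21 falling from E14 to P0. Genes known for their circRNAs gave 5 rising and 19 falling of 33. Other lists rose more often: synapse genes 45 and 8 of 67, ion channels 35 and 5 of 50. Guidance, adhesion and migration gave 38 and 23 of 82, neurotrophic receptors 8 and 3 of 12, and dopamine synthesis and transport 11 and 3 of 17. Of the regulators of circles, 5 of 36 rose and 22 fell, with a median of -0.29. Over all genes 25.1% rose and 30.6% fell, with a median of -0.05. The RNA-binding protein genes Nono (-0.75), Hnrnpm (-0.72) and Ilf2 (-0.72) fell, and Rbfox3 (0.68), Qk (0.62), Adarb1 (0.55) and Mbnl2 (0.53) rose.

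For circRNAs of the same hosts in the time series, few changes passed the test. The 277 hosts with a row there had 1403 circRNAs, of which 354 averaged 2 normalized reads or more and were tested. From E14 to P0, 2 rose and 9 fell (limma), beside 1.23% and 1.96% of all 1630 circRNAs tested, and their median log2 fold change was -0.43 against -0.36. At equal totals 3 rose and 7 fell, beside 32 and 23 of all 1630, and the median of all became -0.21. Without that scaling 20 and 32 of all 1630 were called, so the balance over all circRNAs depends on it. From E16 to P0 at equal totals it was 1 and 1, beside 3 and 2 of all. From E16 to P0, 0 rose and 1, circ_00366_Pbrm1, fell, beside 0.0613% and 0.184%; it was called in no fit that left out an E14 or E16 library. From E14 to E16, 0 rose and 0 fell by limma, beside 0% and 0%, with 13 of the 354 at an unadjusted p under 0.05. The P0 libraries were shallower, at 11196 to 18097 circRNA reads, and the part of depth in these changes was not tested.

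The abundant case was circ_00023_Psd3, chosen here after its values were seen. It had 135, 137 and 141 normalized reads at E14, 106, 88.8 and 86.4 at E16 and 72.6, 70.1 and 56.9 at P0. Its log2 fold change from E14 to P0 was -1.04 (SE 0.20, limma adjusted p 0.00820), with no overlap between these ages. The call was lost without E14 library 1 or 3, at adjusted p of 0.0733 and 0.0610. Over the same ages the Psd3 gene rose from a mean of 4121 to 8267 normalized reads. The Psd3 circles circ_00574_Psd3 and circ_00641_Psd3 were at 10.8 ± 3.08 and 9.84 ± 3.32 (SD, n = 3) at E14 and at 0 in each P0 library.

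The other declining circles fell to 0 at P0 or came from hosts that fell with them. circ_00498_Pde5a went from 19.1, 7.90 and 14.6 normalized reads at E14 to 0 in each P0 library. Its E14 mean was 9.32 times the level of 3 reads over the P0 libraries, an allowance for counting error only. Counts of the time series were not used here, so this ratio and the depths rest on reads estimated from the steps in the normalized values. With the same allowance the ratio was 8.06 for circ_00483_Zswim6 and 7.01 for circ_00366_Pbrm1. For Pde5a, Zswim6 and Pbrm1 the gene fell as well. circ_00011_Robo1, from an axon guidance receptor gene and named for its abundance after its values were seen, went from 182 ± 19.3 to 111 ± 22.6 normalized reads (SD, n = 3), while the Robo1 gene fell by 0.77 on the log2 scale. The rest were circ_00190_Rabep1 and circ_01169_Tle1. The circles that rose were circ_00154_Smarca1, from 11.5, 10.8 and 14.6 to 46.2, 27.7 and 37.9, and circ_00704_Bbs9, from 0, 1.44 and 0 to 8.25, 9.78 and 8.30. All 11 calls were lost without E14 library 1 and again without E14 library 3. The 9 that fell became 3 without E14 library 2, 4 without E16 library 1 and 5 without P0 library 3. The 2 that rose became 0 without any E14 library, E16 library 1 or 3 or P0 library 3, and 1 without E16 library 2 or P0 library 1.

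**Figure D5:**
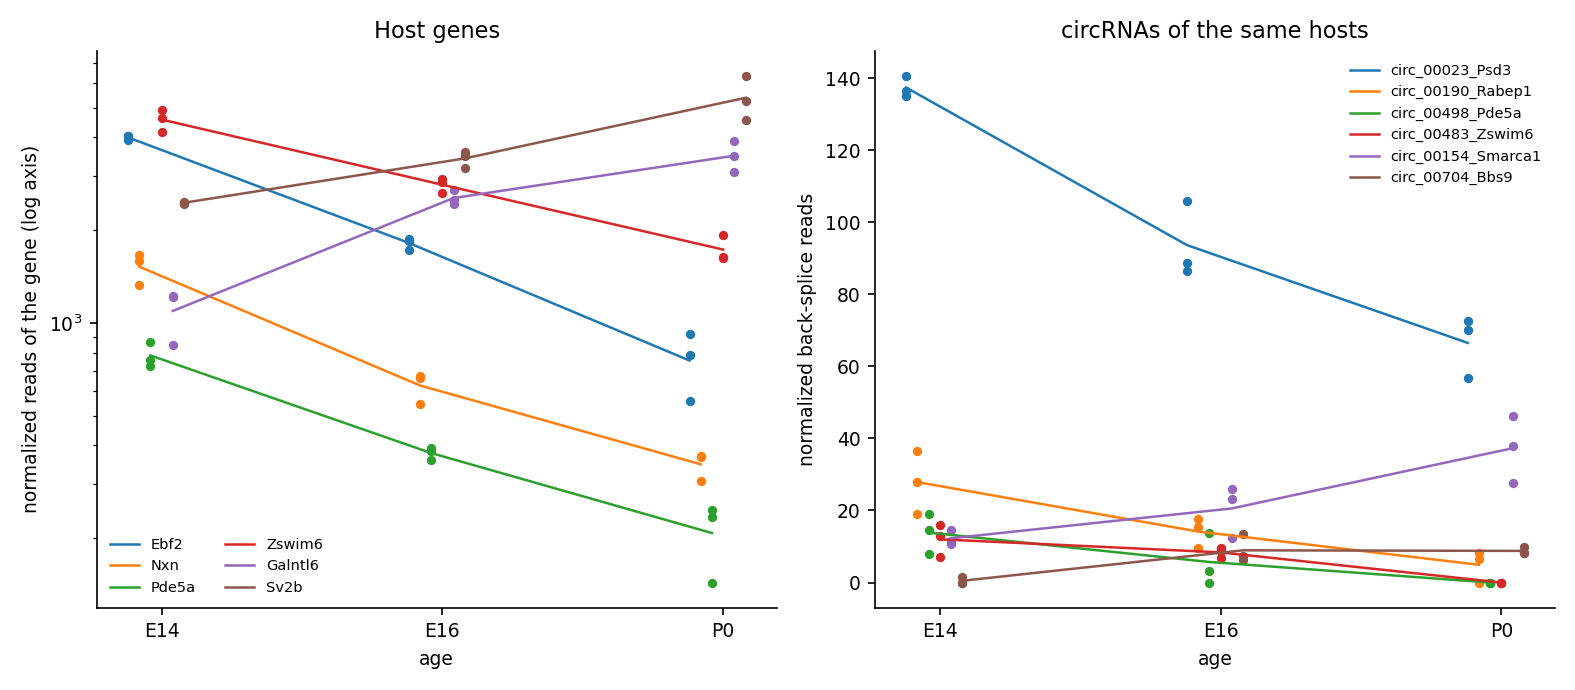
Normalized reads of host genes (left, log axis) and of 6 circRNAs of such hosts (right, linear axis) in the 3 libraries of each age, with lines through the means. circ_00023_Psd3 declines from 137 at E14 to 66.5 at P0, while Galntl6 rises from 1094 to 3491.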

How the data were processed

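RNA of sorted Pitx3-GFP ventral midbrain cells was extracted with the miRNeasy micro kit, depleted of ribosomal RNA and made into ScriptSeq v2 libraries, per the labels' protocols. Among tools and builds, GRCm38, mm10, TopHat2, Trim Galore and DESeq2 are listed by the submitters' processing notes. How circRNAs were called and reads counted, with or without strand, is not given in the sources used here, and overlapping genes cannot be told apart. The authors deposited normalized reads, here called signal, each library divided by 1 scaling factor. A log2 fold change and p-values for each comparison came from the authors too, per the file headers.

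The members and gene lists were chosen with earlier results of these data known. Per-library GFP+ values of the sorted circRNAs were not used here; their reads were resolved from the deposited means as whole multiples of the library steps, at 0 or at least 2 reads, for 960 circRNAs with a residual of at most 5.2e-09 (100% of 1155 simulated cases recovered). Genes (mean of at least 5) and circRNAs (mean of at least 2) were tested on log2(normalized reads + 1) with limma 3.58.1 in R 4.3.3, two-sided, with Benjamini-Hochberg adjustment over the whole table at 0.05, so fold changes of low values are understated. On counts simulated for GFP+ against GFP−, 98% of 2-fold and 100% of 4-fold changes among 200 were recovered, with 5 false calls in 18289 genes. The simulation gave all genes the same dispersion, had no replicate effect and drew the changed genes from the more abundant ones. Recovery in the data may therefore be lower. The sorted gene values were whole multiples of 1 step in each library (100%, tolerance 0.1), and edgeR 4.0.16 and DESeq2 1.42.0 were run on those reads as alternatives. Time series reads were estimated in the same way and used only for depths and for ratios to 3 reads, with no count test (17910017 to 33386535 gene reads over 10781 genes). Sorted columns numbered alike had correlated deviations (0.645, 0.357 and 0.234). Of those numbered unlike, GFP− column 3 with GFP+ column 2 gave 0.395, and GFP− column 2 with GFP+ column 3 gave 0.184. The correlations thus do not settle the pairing of columns 2 and 3. The column numbers also differ from those in the labels, so the pairing behind the replicate block is uncertain. Named members were those called by the authors, the 15 most abundant, up to 5 per list, those of hosts with 3 or more members, both sides of the limit and the 5 with most expected GFP− reads; named hosts and time series circRNAs were up to 5 in each direction by fold change among calls without overlap, and up to 4 of the circle regulators in each direction. Genome positions are those of GENCODE on GRCm38, and sequences are from RefSeq. Some genes that this rule names are not reported here.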

Additional observations from a re-analysis of the deposited data

How the results depend on the processing

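The count of members followed its limits: 98 with a mean of at least 1, 960 with at least 0.25, 1191 when 0 was asked of any pair of GFP− libraries, 133 with reads in at least a pair of GFP+ libraries and 33 in all 3 (the last pair of settings chosen after seeing the data); without GFP− library 1, 2 or 3 it was 528, 580 and 628, and leaving out any 1 library gave 250 to 628. Hosts higher and lower in GFP+ cells were 187 and 28 with the replicate block, and 25 were lower when scaled to equal totals; edgeR gave 113 and 19, DESeq2 121 and 16, and leaving out 1 library 91 to 128 and 11 to 18. Hosts of members with a mean of at least 1 gave 44 and 5 in the sorted cells and, over time, 9 and 26 (E14 to E16), 14 and 20 (E16 to P0) and 12 and 35 (E14 to P0). Hosts of members in at least a pair of libraries gave 54 and 8, then 11 and 31, 19 and 29, and 18 and 49. With 1 library left out, time series hosts rising and falling ranged from 24 to 35 and 53 to 79, from 28 to 47 and 40 to 75, and from 47 to 68 and 102 to 127. circRNAs rising from E14 to P0 numbered 0, 7, 1 and 1 (pseudocount 0.5, pseudocount 5, no filter, replicate block), 0 for either restricted member set and 0 to 2 with 1 library left out; those falling numbered 4 at pseudocount 0.5, 2 for members with a mean of at least 1 and 0 to 10 with 1 library left out. From E16 to P0, 1 rose at pseudocount 5, at a mean of at least 5 and at equal totals, 0 fell for members with a mean of at least 1, and leaving out 1 library gave 0 rising and 0 to 2 falling. From E14 to E16, 1 rose without the filter. With 6 reads as the limit, 279 expected values were at or under it, and at 5 normalized reads 86 hosts had a circRNA, not necessarily the same, in each of the 3 E14 libraries. No named value reversed; 773 of the single gene and circRNA values kept their side of the threshold, 94 lost and 5 gained a call; the cause of these shifts was not tested. Same-numbered time series libraries correlated between -0.113 and 0.245 (genes), and the block changed no host count over time by more than 1.5 times; with it circ_00154_Smarca1, circ_00704_Bbs9 and circ_01169_Tle1 lost their calls, and among named sorted hosts Adgrl2 and Foxp1 gained one. Depth is a limit: 202 of the 370 members rest on 3 or 4 reads.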
